A study of Mus musculus with 10 samples.

Results

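The genes for 8 granzymes (Gzma, Gzmb, Gzmc, Gzmd, Gzme, Gzmf, Gzmk and Gzmm), for perforin (Prf1) and for the granule membrane protein Nkg7 were followed in 10 mouse tumors. They were chosen by name among the 37417 genes of the deposited count table, each through its Ensembl identifier, and all 10 were found. RNA-seq was done on s.c. tumors of Panc02, a mouse pancreatic cancer cell line, grown in wild-type C57BL/6J mice that were 12 weeks old per the labels, and collected at day 16 after injection. Cancer cells with a guide to Cda, which encodes the nucleoside enzyme cytidine deaminase, formed 5 tumors (sgCda), and cells with a nontargeting guide formed the other 5 (sgNT). Cancer cells of both groups had been given a doxycycline-inducible Cas9, no treatment of the mice is labelled, and the host cells, which include the T cells and natural killer (NK) cells, carried no guide. The study describes Panc02 as richer in mutations and antigens than the human disease, and per its methods edited cells were cloned by limiting dilution, without the number of clones behind these tumors being given.

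Cytotoxic T cells and NK cells kill by emptying granules onto a target cell. Perforin inserts into the target membrane and opens the way for granzymes, serine proteases that cut proteins inside the target and so start its death. Gzmb, which cuts after aspartate, and Gzma, a tryptase, are the best-known of them. Gzmk is a tryptase seen in less differentiated effector and memory cells, and Gzmm a protease typical of innate-like lymphocytes. Gzmc, Gzmd, Gzme, Gzmf and Gzmg are rodent genes next to Gzmb, switched on in strongly or repeatedly stimulated killer cells, and Nkg7 is a membrane protein of the granule that is needed for its full release.

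The gene positions are given on GRCm38 with the GENCODE M21 annotation, and all 10 are protein-coding. Gzmb (chr14:56258838-56262260), Gzmc (chr14:56231441-56234656), Gzmf (chr14:56205263-56211417), Gzmd (chr14:56129556-56132608) and Gzme (chr14:56117626-56120625) lie on the minus strand of chromosome 14, each with 5 exons. Gzma (chr13:113093825-113100981) and Gzmk (chr13:113171608-113225908) share the minus strand of chromosome 13, with 6 exons each. Prf1 (chr10:61297833-61304680), with 3 exons, and Gzmm (chr10:79689020-79695261), with 5, lie on the plus strand of chromosome 10. Nkg7 (chr7:43437073-43438249) is a gene of 4 exons on the plus strand of chromosome 7.

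Gzmd, Gzme and Gzmf ranked the 10 tumors in the same order and Gzmc did not, so the 200 bases before the start site are shown for these 4 genes, for Gzmb of the same cluster and for Nkg7, from RefSeq on GRCm38.p6. They are written 5′ to 3′ on the strand of the gene. Capitals mark TGTGGT, the core bound by RUNX factors, GTGTGA, the core bound by T-box factors, and TGACGTCA, the cyclic AMP response element, with each letter string searched on both strands. The windows are chr14:56262335-56262534, chr14:56234658-56234857, chr14:56132594-56132793, chr14:56120626-56120825 and chr14:56211408-56211607, all on the minus strand, and chr7:43436938-43437137 on the plus strand.
Gzmb: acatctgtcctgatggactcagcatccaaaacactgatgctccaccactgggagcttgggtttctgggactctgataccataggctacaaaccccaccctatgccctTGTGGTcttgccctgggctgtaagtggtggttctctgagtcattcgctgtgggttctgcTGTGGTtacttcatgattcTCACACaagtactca
Gzmc: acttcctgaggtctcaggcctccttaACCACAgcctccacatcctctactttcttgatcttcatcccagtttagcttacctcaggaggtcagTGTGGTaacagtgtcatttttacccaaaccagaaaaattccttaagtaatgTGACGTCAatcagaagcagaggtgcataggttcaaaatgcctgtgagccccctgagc
Gzmd: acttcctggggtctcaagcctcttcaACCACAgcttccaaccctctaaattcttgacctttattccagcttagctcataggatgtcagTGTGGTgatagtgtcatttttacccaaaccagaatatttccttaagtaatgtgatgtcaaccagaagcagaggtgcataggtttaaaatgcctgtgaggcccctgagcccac
Gzme: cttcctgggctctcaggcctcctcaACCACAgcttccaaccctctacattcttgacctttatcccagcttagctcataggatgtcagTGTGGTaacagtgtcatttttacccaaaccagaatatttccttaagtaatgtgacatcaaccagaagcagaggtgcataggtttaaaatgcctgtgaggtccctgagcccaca
Gzmf: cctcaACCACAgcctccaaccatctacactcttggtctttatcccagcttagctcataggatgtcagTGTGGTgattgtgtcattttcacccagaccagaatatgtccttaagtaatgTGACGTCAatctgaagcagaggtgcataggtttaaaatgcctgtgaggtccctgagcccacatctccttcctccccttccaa
Nkg7: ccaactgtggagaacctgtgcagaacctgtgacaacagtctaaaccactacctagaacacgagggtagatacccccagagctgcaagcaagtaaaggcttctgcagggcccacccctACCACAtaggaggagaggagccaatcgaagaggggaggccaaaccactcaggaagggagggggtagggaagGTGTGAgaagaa.

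Each of the windows of Gzmc, Gzmd, Gzme and Gzmf held 2 matches to TGTGGT, 1 on each strand, and that of Gzmg held 2 as well. Gzmb also held 2, both on the gene's own strand, while Gzma, Prf1 and Nkg7 held 1 each. Among 32851 RefSeq promoters of the same length, 11.2% held TGTGGT. TGACGTCA was found before Gzmc, Gzmf and Gzmg and in 1.47% of all promoters, but not before Gzmd or Gzme. GTGTGA stood before Gzmb, Gzmk, Nkg7 and, at the second of 2 listed start sites, Gzmm, and in 9.85% of all promoters. TGANTCA, the AP-1 site, was found before Gzmb (not in capitals) and in 5.48% of all. No matches overlapped in the windows printed. A match describes the letters and not the binding of a factor. The windows of Gzmd and Gzme were identical at 94.97% of 199 aligned bases, and those of Gzmc to Gzmf at 86.9% to 94.97% pair by pair, against 51.2% to 60.9% between Gzmb and these 4.

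The coding sequences of the chromosome 14 genes are close enough to bear on their counts. Gzmd and Gzme were identical at 94.8% of aligned coding bases, Gzmd and Gzmf at 84.7%, Gzmb and Gzmc at 76.0%, and Gzmb and Gzmd at 67.4%. With reads of 50 bases, 21.9% of all 50-base windows of Gzmd transcripts also occurred in transcripts of another gene, as did 20.7% for Gzme, 19.4% for Gzmf and 4.14% for Gzmc. None did for Gzma, Gzmb, Gzmk, Gzmm, Prf1 or Nkg7. The longest coding stretch that Gzmd and Gzme share is printed because no read within it can be assigned to either gene. It is 96 bases long and covers bases 410 to 505 of the Gzmd coding sequence (GENCODE M21).
Gzmd and Gzme, shared: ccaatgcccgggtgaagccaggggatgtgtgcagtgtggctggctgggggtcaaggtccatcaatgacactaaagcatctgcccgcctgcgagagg
HTSeq leaves out reads that align to several places, so the levels of Gzmd, Gzme and Gzmf are uncertain by the reads lost there. Gzmf also overlaps the exons of an unnamed gene on the opposite strand, whose transcripts hold 12.1% of its windows, and the strand setting of the counting is not given in the sources used here.

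The tumors had 28051907 to 39484964 counts assigned to genes, so that 3 counts corresponded to at most 0.107 counts per 1000000 (CPM). Levels below are CPM scaled by edgeR's TMM factors, or, where genes are compared with each other, reads per kilobase of merged exons on the same scale (RPKM). The targeted gene Cda, read in whole tumors with many host cells, was 12.1 ± 1.76 CPM in sgNT and 9.77 ± 2.34 CPM in the sgCda group (mean ± SD, n = 5 each), a log2 fold change of −0.30 (SE 0.17, edgeR adjusted p = 1.00), and the groups overlapped. The epithelial markers Krt8, Krt18, Krt19, Epcam and Cdh1 summed to 566 to 1015 CPM, whereas the acinar markers summed to 0.992 to 2.99 CPM. No listed marker found in the table was at 0 in all tumors. The tumor sgCda 4 stood apart by its share of mitochondrial counts (5.82%, against 3.47% to 3.81% in the others) and sgCda 3 by its skeletal muscle markers (1641 CPM summed, against 4.34 to 398.6 CPM in the others). The tumor sgNT 4 stood apart by its keratinocyte markers (22.7 CPM summed, against 3.44 to 5.63 CPM in the others) and sgCda 2 by its adipocyte markers (661 CPM, against 25.1 to 171 CPM in the others).

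Gzmb was 25.2, 17.1, 42.2, 64.2 and 31.2 CPM in sgNT tumors 1 to 5 and 22.3, 21.3, 129, 16.2 and 29.6 CPM in the sgCda group 1 to 5. The sgCda tumor 3 was higher than any other tumor, the other 4 sgCda tumors stood below the sgNT mean of 36.0 CPM, and the groups overlapped. Prf1 was 14.3, 13.1, 24.9, 39.1 and 21.7 CPM in sgNT and 13.8, 16.5, 46.7, 12.0 and 19.5 CPM in the sgCda group. Perforin thus had its highest levels in the same pair of tumors as Gzmb, sgCda 3 and sgNT 4. Gzma was 8.23, 4.01, 13.8, 18.0 and 9.02 CPM in sgNT and 11.5, 9.52, 29.6, 9.56 and 10.2 CPM in the sgCda group, again with sgCda 3 at the top, and with the other 4 sgCda tumors close together.

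The 4 genes downstream of Gzmb on chromosome 14 ranged far more widely. Gzmd was 1.45, 0.221, 29.2, 102 and 53.7 CPM in sgNT tumors and 12.6, 10.1, 60.9, 5.35 and 42.8 CPM in the sgCda group. Between sgNT tumors 2 and 4 this was a 463-fold range within a single group, from 7 counts (95% Poisson interval 2.81 to 14.4, counting error only) to 3260 counts. Gzmf had the highest mean of them, though Gzmc was above it in sgNT 1, sgNT 2 and sgCda 4. Gzmf was 4.82, 1.33, 41.6, 165 and 88.1 CPM in sgNT and 19.8, 15.9, 89.2, 7.40 and 63.0 CPM in the sgCda group. Gzme was 0.674, 0.284, 9.15, 34.1 and 17.5 CPM in sgNT and 4.08, 3.13, 23.6, 2.23 and 14.7 CPM in the sgCda group. By each of Gzmd, Gzme and Gzmf the 10 tumors stood in the same order, led by sgNT 4 and ending with sgNT 1 and sgNT 2. Gzmc was 7.15, 2.84, 34.4, 85.3 and 42.7 CPM in sgNT and 15.6, 15.4, 35.3, 32.0 and 28.3 CPM in the sgCda group. It shared the extremes sgNT 4 and sgNT 2 with the other 3 genes, but sgCda tumor 4, low for Gzmd, Gzme and Gzmf, was second among the sgCda tumors for Gzmc.

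The remaining granzymes were low. Gzmk was 1.45, 4.80, 3.81, 2.86 and 1.53 CPM in sgNT and 2.54, 2.75, 11.6, 1.13 and 1.87 CPM in the sgCda group, and sgNT 2, the tumor with the least Gzma, Gzmc, Gzmd, Gzme and Gzmf, had the most Gzmk of its group. Gzmm rested on 7 to 25 counts per tumor and was 0.222 to 0.680 CPM. Nkg7 was 43.2, 41.5, 63.8, 47.6 and 37.9 CPM in sgNT and 40.8, 54.7, 103, 23.5 and 27.0 CPM in the sgCda group. The sgNT tumors differed little in Nkg7 (1.68-fold from lowest to highest), while the sgCda tumors lay on both sides of them (4.38-fold).

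**Figure D1:**
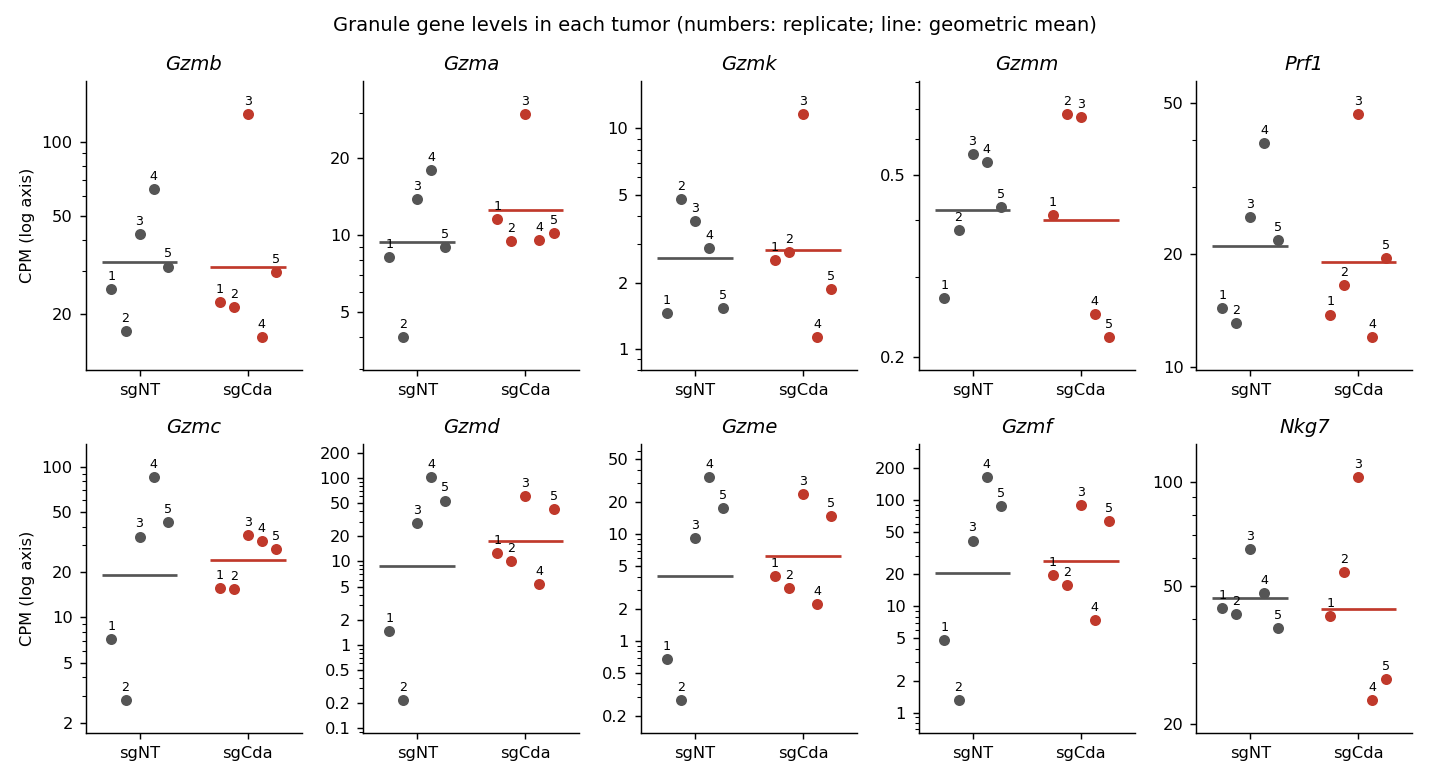
Level of each granule gene (CPM, log axis) in every sgNT (grey) and sgCda (red) tumor, with replicate numbers beside the points and a line at the geometric mean of each group. The groups overlapped for all 10 genes (the share over all genes was not counted), and the spread of Gzmd in sgNT tumors (463-fold) exceeded any distance between the lines.

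Set against all 15299 genes tested, granule genes varied strongly between tumors. The SD of log2 CPM over the 10 tumors was 2.67 for Gzmd, 2.20 for Gzme and 2.18 for Gzmf, which placed them at ranks 22, 44 and 48. Gzmc followed with an SD of 1.40 at rank 197. Gzmk (0.96), Gzmb (0.93), Gzma (0.75), Prf1 (0.67) and Nkg7 (0.60) stood at the 97.0, 96.7, 94.8, 92.8 and 90.6 percentiles, and Gzmm (0.50), where low counts add to the spread, at 85.8. The median SD was 0.94 for the 10 granule genes and 0.20 for all genes. In bulk tumors, fewer cells of a type and less RNA per cell cannot be told apart.

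Per length of transcript, the order by mean RPKM over the 10 tumors was Gzmf (53.9 ± 56.9, SD), Nkg7 (52.8 ± 24.7), Gzmc (33.4 ± 26.2), Gzmd (33.1 ± 34.4), Gzmb (27.7 ± 24.0), Gzma (12.3 ± 7.04), Gzme (12.0 ± 12.4), Prf1 (8.58 ± 4.56), Gzmk (2.47 ± 2.22) and Gzmm (0.299 ± 0.114). Much of this order did not hold tumor by tumor. Gzmf was above Nkg7 in 3 of 10 tumors, Nkg7 above Gzmc in 6, Gzmc above Gzmd in 6, Gzmd above Gzmb in 4, Gzma above Gzme in 7 and Gzme above Prf1 in 5. The steps kept in 10 of 10 tumors were Gzmb above Gzma, Prf1 above Gzmk and Gzmk above Gzmm.

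The makeup of the granzyme transcripts therefore differed between tumors of one group. The RPKM of the 8 granzymes summed to 42.4, 24.8, 170, 483 and 250.5 in sgNT and to 85.6, 75.2, 354, 73.5 and 193 in sgCda tumors. Gzmc to Gzmf made up 36.5%, 20.8%, 72.8%, 86.5% and 87.2% of this sum in sgNT tumors 1 to 5, and 66.0%, 64.5%, 63.8%, 70.4% and 83.3% in sgCda tumors 1 to 5. Gzmb was the largest single share in sgNT tumors 1 and 2 (41.3% and 48.1%), Gzmc in sgCda tumor 4 (48.6%) and Gzmf in the other 7. The mean share of Gzmc to Gzmf was 60.8% ± 30.4 in sgNT tumors against 69.6% ± 8.08 in the sgCda group (SD, n = 5 each), a difference smaller than the spread between sgNT tumors, and no test was run on it. Gzmk reached 13.9% of the sum in sgNT 2 and at most 2.63% in the other tumors.

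**Figure D2:**
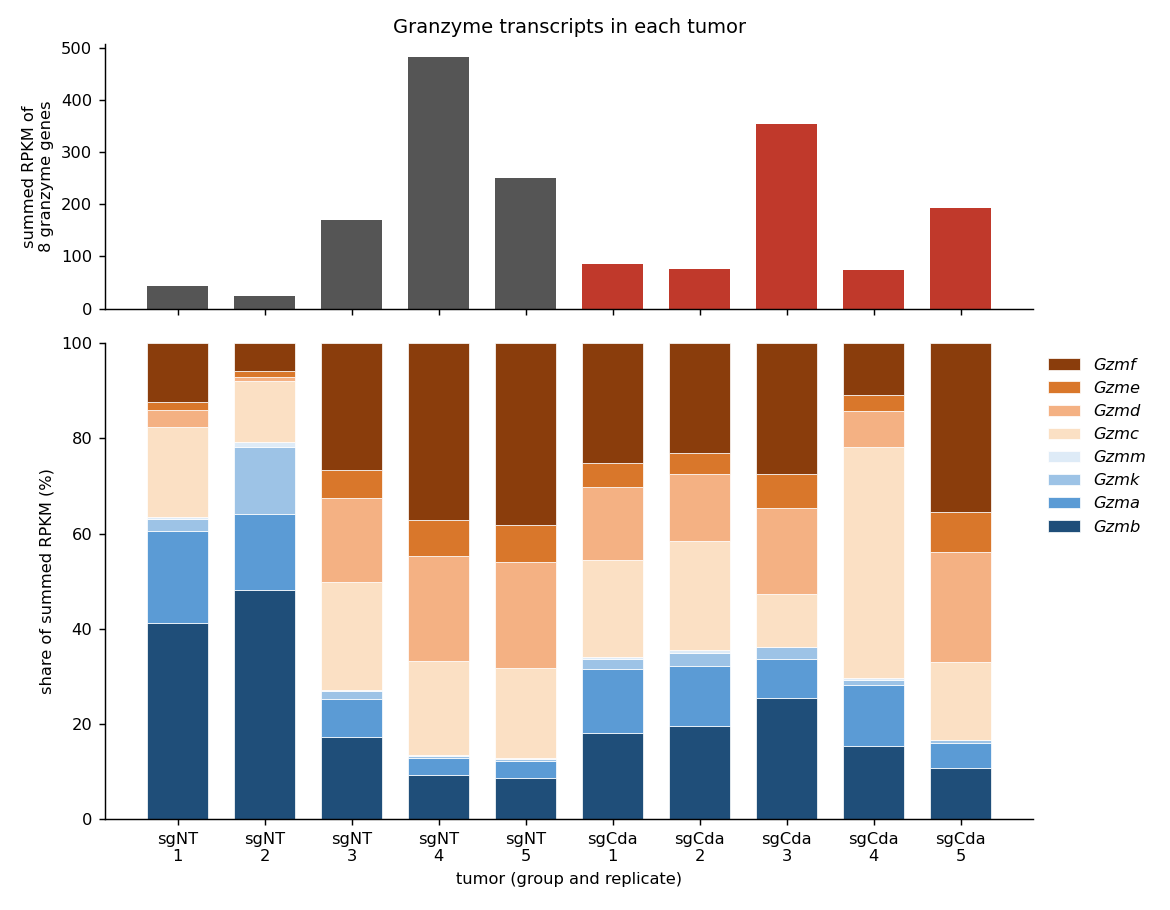
Summed RPKM of the 8 granzyme genes in each tumor (bars, upper panel) and the share of each gene in that sum (stacked bars, percent, lower panel), with Gzma, Gzmb, Gzmk and Gzmm in blue and Gzmc to Gzmf in orange to brown. The sum ran from 24.8 in sgNT 2 to 483 in sgNT 4, and the orange to brown share from 20.8% in sgNT 2 to 87.2% in sgNT 5.

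Ratios between genes were then taken within each tumor. The ratio of Gzme to Gzmf RPKM stayed between 0.140 and 0.302 while Gzmf itself ranged 124-fold. No exact 50-base window is shared by these 2 genes, but their coding sequences were identical at 84.9% of aligned bases. Whether reads with mismatches were counted for the wrong gene was not tested. Gzmd to Gzmf was 0.581 to 0.689 in 8 tumors, and 0.287 and 0.159 in sgNT 1 and sgNT 2, where Gzmd had 43 and 7 counts. Gzmc to Gzmf was looser, from 0.407 in sgCda 3 to 4.44 in sgCda 4. Prf1 to Gzmb was 0.201 to 0.431, lowest in sgCda 3. Among the pairs of genes chosen for these ratios, the smallest spread was that of Nkg7 to Cd8a, a subunit of the CD8 coreceptor on cytotoxic T cells. It stayed between 1.70 and 2.08, with an SD of 0.083 on the log2 scale, although Cd8a ranged 3.90-fold. Gzmf to Gzmb, genes of the same cluster, went from 0.121 in sgNT 2 to 4.42 in sgNT 5.

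**Figure D3:**
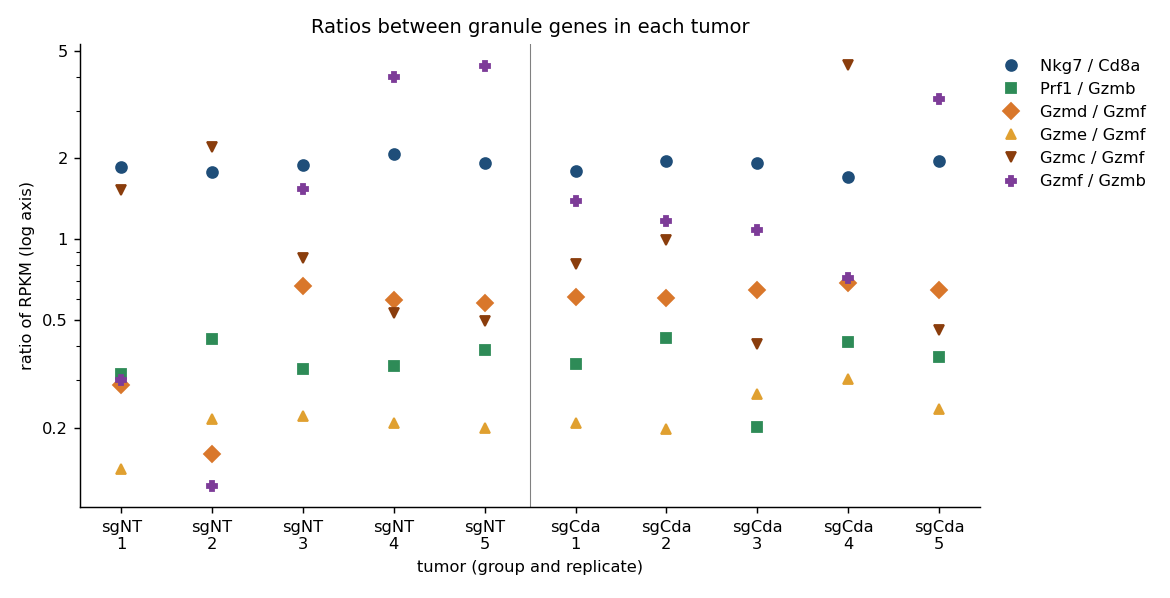
Ratio of RPKM between pairs of genes (log axis) in each tumor, sgNT left and sgCda right of the vertical line. Nkg7 to Cd8a stayed between 1.70 and 2.08, while Gzmf to Gzmb spread from 0.121 to 4.42.

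The genes most like each granule gene over the 10 tumors, by Pearson r of log2 CPM among 13260 other genes with a mean of at least 0 log2 CPM, differed between these groups. The 10 granule genes themselves were left out of this search, so none could be the nearest gene of another. For Nkg7 they were Il2rb, a receptor chain for IL-2 and IL-15 (r = 0.997), Cd8b1, the other CD8 subunit (0.993), and Cxcr6, a chemokine receptor of T cells in tissue (0.992). For Gzmd, Gzme and Gzmf the first was Gzmg (0.991, 0.992 and 0.997), followed by Rabepk for Gzmd (0.963) and Gzme (0.963) and by Derl2 (0.968) and Psmd8 (0.961), genes of protein disposal, for Gzmf. The third places were ENSMUSG00000092486 for Gzmd (0.947) and 2810004N23Rik for Gzme (0.960). For Gzmb they were Clic5 (0.990), Srm, spermidine synthase (0.985), and Nus1 (0.983), and for Prf1 Ddx39 (0.984), the ribosome biogenesis gene Imp4 (0.983) and Actl6a (0.982). For Gzma they were Nipal1 (0.966), Nob1 (0.948) and Hspb1 (0.948), and for Gzmc Tsg101 (0.964), Htra4 (0.932) and Fam219b (0.922). For Gzmk they were Tsn (0.909), Oxsr1 (0.896) and Cd28, the T cell costimulatory receptor (0.893), and for Gzmm Ptk2b (0.926), Gpkow (0.914) and Gimap7 (0.909). The r values in this paragraph are a description over 10 tumors, taken as the highest of many genes, and have no p.

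CD8+ T cells and NK cells are both known sources of granule transcripts, so each gene was set against Cd8a and against Ncr1, the gene for the NK cell receptor NKp46, over the 10 tumors. In total 20 relations were computed for the granule genes, and p values came from 100000 permutations over the tumors, adjusted over the 15298 genes tested with each marker. Cd8a was 54.9 to 214 CPM, Ncr1 only 1.23 to 4.87 CPM, and the 2 markers had an r of −0.22 with each other (rho −0.61, permutation p = 0.536 and 0.0677). With Cd8a, 1 of 10 granule genes passed an adjusted p of 0.05, beside 1.52% of all genes (1.10% in the same direction), and 4 passed unadjusted, beside 19.3% of all genes.

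Nkg7 followed Cd8a most closely (r = 0.99, permutation p = 2e-05, adjusted p = 0.0242, and rho = 0.94, p = 2e-04, adjusted p = 0.122). Without the 2 tumors farthest from the median of Cd8a, sgCda 3 and sgCda 5, its r was 0.98 (permutation p = 0.00028, adjusted p = 0.204), and over 14 alternatives r stayed at 0.98 to 0.99 while 9 gave an adjusted p under 0.05. The call was lost without sgNT 3 (adjusted permutation p = 0.105), sgCda 2 (0.0546), sgCda 3 (0.0732) or sgCda 5 (0.0510). In each of these settings, and without both sgCda 3 and sgCda 5, 0 of all genes passed after adjustment. The unadjusted permutation p of Nkg7 stayed at 3e-05 to 8e-05 when 1 of these tumors was left out. Gzmk (r = 0.85, permutation p = 0.00262, rho = 0.76, p = 0.0145) and Gzmm (r = 0.82, permutation p = 0.00247, rho = 0.77, p = 0.0132) came next, with adjusted p of 0.0877 and 0.0858 for r and of 0.384 and 0.365 for rho. Their r without the same 2 tumors was 0.72 and 0.73. Gzmb had an r of 0.68 (permutation p = 0.0339, adjusted p = 0.223, rho = 0.33, p = 0.349, adjusted p = 0.834), Prf1 of 0.61 (p = 0.0634, adjusted 0.284, rho = 0.41, p = 0.247, adjusted 0.763) and Gzma of 0.54 (p = 0.104, adjusted 0.347, rho = 0.22, p = 0.538, adjusted 0.923). These 3 fell to 0.42, 0.38 and 0.16 without sgCda 3 and sgCda 5, and to 0.30, 0.27 and 0.11 without sgCda 3 alone, where Gzmk was at 0.68 (adjusted permutation p = 0.424). Without sgCda 4 the r of Gzmb was 0.62 (permutation p = 0.0864). For Gzmc, Gzmd, Gzme and Gzmf r was 0.01, 0.16, 0.19 and 0.20 (permutation p = 0.973, 0.644, 0.607 and 0.586, adjusted 0.988, 0.804, 0.782 and 0.767), with rho between −0.08 and −0.01 (p = 0.839 for Gzmc and 1.00 for the others, adjusted 0.982 and 1.00).

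With Ncr1 the highest r were those of Gzmc (0.87, permutation p = 0.00154, rho = 0.75, p = 0.0175), Gzmd (0.74, p = 0.0152, rho = 0.56, p = 0.0958), Gzmf (0.71, p = 0.0187, rho = 0.56, p = 0.0958) and Gzme (0.70, p = 0.0195, rho = 0.56, p = 0.0958). None of the 10 genes passed after adjustment (adjusted p = 0.997 for these 4 by r and 1.00 by rho). None of the 15298 genes did either (0%). Unadjusted, 4 of 10 passed, beside 2.78% of all genes. The 4 were Gzmc to Gzmf and do not count as separate observations, since Gzmd, Gzme and Gzmf ranked the 10 tumors in the same order. Ncr1 is low, and the 2 tumors farthest from its median were sgNT 2 and sgNT 4, the extremes of Gzmc to Gzmf. Without them the r values of Gzmc, Gzmd, Gzmf and Gzme were 0.49, 0.15, 0.11 and 0.17 (permutation p = 0.222, 0.720, 0.800 and 0.679). These relations leaned on those tumors, though leaving out the extremes of a marker also narrows its range. In the same order of genes r was 0.71, 0.43, 0.43 and 0.45 without sgNT 2 alone. It was 0.82, 0.68, 0.62 and 0.62 without sgNT 4 alone. Gzma had an r of 0.60 (permutation p = 0.0699, rho = 0.44, p = 0.204), Prf1 of 0.39 (p = 0.264, rho = 0.16, p = 0.657), Gzmb of 0.35 (p = 0.310, rho = 0.24, p = 0.512), Gzmm of −0.03 (p = 0.949, rho = −0.20, p = 0.582), Nkg7 of −0.16 (p = 0.655, rho = −0.43, p = 0.219) and Gzmk of −0.36 (p = 0.295, rho = −0.41, p = 0.249), and the first 3 turned negative without the same 2 tumors. Without sgCda 3 the r of Gzma was 0.84 (permutation p = 0.0117, adjusted p = 0.842). Whether a gene followed one marker more closely than the other was not tested. With the group means removed first, r with Cd8a was 0.99 for Nkg7 and 0.68 for Gzmb, and r with Ncr1 was 0.87 for Gzmc, close to the values over all tumors.

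**Figure D4:**
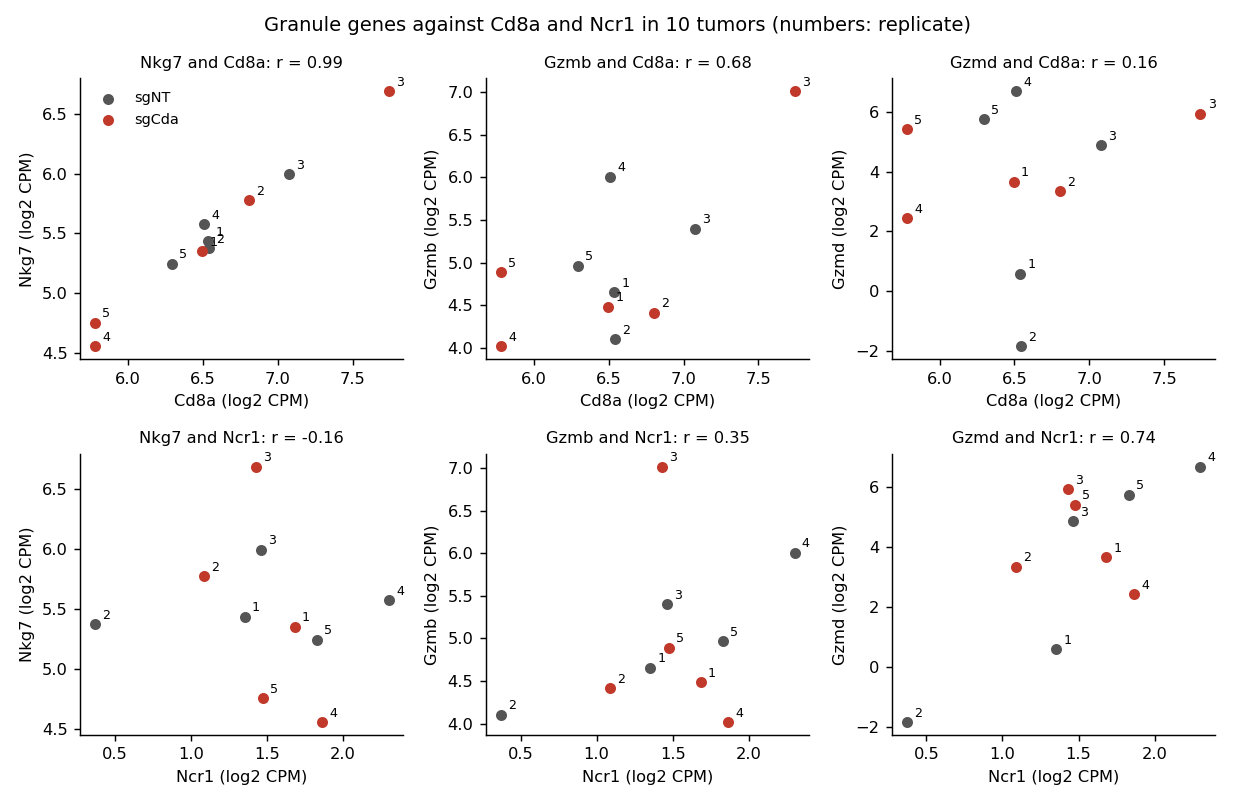
Nkg7, Gzmb and Gzmd (log2 CPM, vertical axes) against Cd8a (upper row) and Ncr1 (lower row, both log2 CPM) in the sgNT (grey) and sgCda (red) tumors, numbered by replicate. Nkg7 lay on a line with Cd8a (r = 0.99) and Gzmd did not (r = 0.16), and the r of 0.74 between Gzmd and Ncr1 fell to 0.15 without sgNT 2 and sgNT 4.

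Other cell types were read by their markers in the same tumors. The T cell markers (8 of 8 measured) summed to 207 to 326 CPM in sgNT and 157 to 458 CPM in the sgCda group, and the NK cell markers (8 of 8) to 170 to 277 CPM and 171 to 376 CPM. Both sums were highest in sgCda 3, the tumor with the most Gzmb, Prf1, Gzma, Gzmk and Nkg7. Several of the NK cell markers, such as Klrd1 and Klrk1, are also made by activated CD8+ T cells. Ncr1 in that tumor was 2.63 CPM, within the spread of both groups (mean ± SD of 2.96 ± 1.34 CPM for sgNT, n = 5, and of 2.83 ± 0.569 CPM for the sgCda group, n = 5). The mast cell and basophil markers (6 of 6) summed to 56.7, 49.6, 63.4, 110 and 124 CPM in sgNT tumors, low in sgNT 1 and 2 and high in sgNT 4 and 5 like Gzmc to Gzmf, and to 64.9 to 101 CPM in the sgCda group, where the tumor with the most Gzmf had the least. The 3 measured markers of γδ T cells summed to 15.4 to 26.2 CPM, nearly all from Sox13. The skeletal muscle markers were highest in sgCda 3 (1641 CPM) and sgNT 4 (398.6 CPM), the 2 tumors with the most Gzmb. Next in Gzmb was sgNT 3 (42.2 CPM, with 283 CPM of the muscle markers). Against this, sgCda 1 had 387 CPM of these markers with 22.3 CPM of Gzmb, and sgNT 5 had 13.1 CPM with 31.2 CPM. The keratinocyte markers were highest in sgNT 4, the tumor with the most Gzmc, Gzmd, Gzme and Gzmf. The part of these cells in the granule gene values was not tested.

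Between sgCda and sgNT tumors no granule gene passed the test. All 10 passed the filter on low counts, and 0 of 10 reached an adjusted p of 0.05 in edgeR's quasi-likelihood test, as did 0 of all 15299 genes tested (0%). At an unadjusted p under 0.05 there were 0 of 10 granule genes, beside 382 of all genes (2.50%), with DESeq2 and limma-voom calling 433 and 317 genes unadjusted and also 0 after adjustment. For 5 of the 10 the log2 fold change was above 0 and for 5 below, with a median of −0.0036 (0.0078 over all genes). The groups overlapped for 10 of 10. The share of all genes that overlapped was not counted, so whether this is particular to granule genes is not known. The median standard error was 0.59, against 0.13 over all genes.

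Among the genes of the core killing machinery, the log2 fold change of sgCda over sgNT was 0.28 for Gzmb (SE 0.58), −0.06 for Prf1 (SE 0.40) and 0.41 for Gzma (SE 0.42), each with an edgeR adjusted p of 1.00. The 95% confidence intervals ran from −0.98 to 1.55, from −0.94 to 0.82 and from −0.52 to 1.34. The intervals thus allowed anything from a loss of 49.5% to a gain of 192% for Gzmb. The sign of Gzmb and Gzma depended on sgCda 3 alone among single tumors, with values of −0.69 and −0.06 without it, while Prf1 was −0.55 without sgCda 3. Prf1 turned above 0 without any 1 of 4 tumors, at 0.23 without sgNT 4, 0.07 without sgCda 1, 0.03 without sgCda 2 and 0.10 without sgCda 4. Gzmb, Prf1 and Gzma were above the sgNT mean in 1, 1 and 2 of 5 sgCda tumors.

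Gzmc, Gzmd, Gzme and Gzmf had log2 fold changes of −0.45 (SE 0.69), −0.51 (SE 1.09), −0.37 (SE 1.03) and −0.62 (SE 1.02), again with edgeR adjusted p of 1.00. Their 95% confidence intervals were the widest of the granule genes, from −1.96 to 1.07 for Gzmc and from −2.91 to 1.90 for Gzmd. For these 4 genes, and for Gzmb, Gzmm and Nkg7, the direction depended on how tumors were averaged. The edgeR fit follows the mean level, which for these 4 was lower in sgCda tumors (26.3 ± 24.3 against 37.4 ± 42.5 CPM for Gzmd, SD, n = 5 each). Their mean of log2 CPM was higher in sgCda tumors, by 0.95 for Gzmd, 0.58 for Gzme, 0.34 for Gzmf and 0.31 for Gzmc. For Gzmb, Gzmm and Nkg7 the edgeR values were 0.28, 0.05 and 0.09. Their differences in mean log2 CPM, sgCda minus sgNT, were −0.06, −0.05 and −0.10. Without sgNT 4 the edgeR values were 0.21, 0.31, 0.46 and 0.20 for Gzmc, Gzmd, Gzme and Gzmf.

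Gzmk had a log2 fold change of 0.46 (SE 0.60), Gzmm of 0.05 (SE 0.36) and Nkg7 of 0.09 (SE 0.35), with edgeR adjusted p of 1.00. Without sgCda 3 they were −0.47, −0.14 and −0.36. Gzmm was also below 0 without sgNT 1 (−0.08) or sgCda 2 (−0.15). With Cd8a as a covariate, Gzmb moved from 0.28 to 0.00010, Gzmk from 0.46 to 0.13, Gzma from 0.41 to 0.35, Gzmm from 0.05 to −0.01 and Nkg7 from 0.09 to −0.03, while Prf1 was −0.14, Gzmc −0.45, Gzmd −0.59, Gzme −0.48 and Gzmf −0.70.

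**Figure D5:**
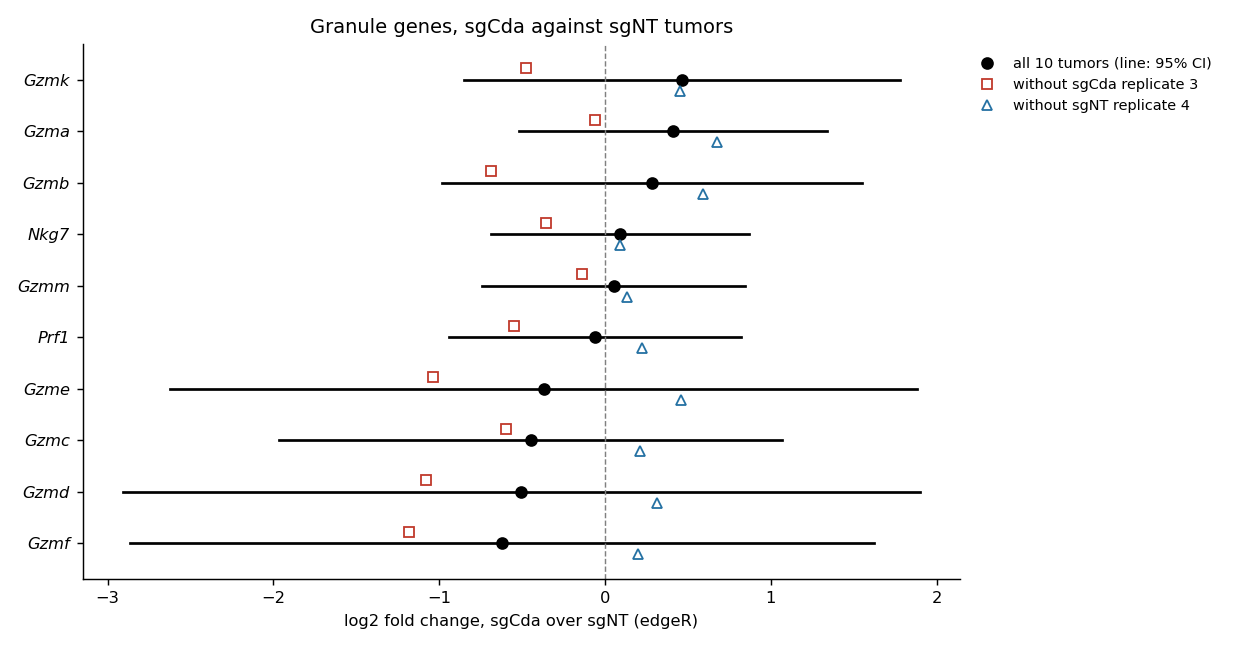
Log2 fold change of each granule gene, sgCda over sgNT (edgeR), from all 10 tumors (points, with lines for the 95% confidence interval), without sgCda 3 (open squares) and without sgNT 4 (open triangles). Each interval held 0, and leaving out a single tumor moved Gzmb from 0.28 to −0.69 and Gzmd from −0.51 to 0.31.

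The genes around the granule pathway were read in the same fit, and 0 genes of the 6 lists below passed an adjusted or unadjusted p of 0.05 (edgeR). Of the other granzymes and neighboring serine protease genes, 7 of 9 were tested, 4 above and 3 below 0, with a median log2 fold change of 0.03. Gzmg, nearest to Gzmf by r among genes outside the 10, was 1.55, 0.442, 26.3, 112 and 66.4 CPM in sgNT and 13.3, 9.60, 57.9, 3.47 and 46.8 CPM in the sgCda group (log2 fold change −0.66, SE 1.11). It was lowest in sgNT 2 and highest in sgNT 4, as were Gzmc to Gzmf, and 19.8% of its windows occur in other genes. The mast cell proteases Mcpt1 (1.27, SE 0.86) and Mcpt2 (0.39, SE 0.45) and cathepsin G, Ctsg, of neutrophils and mast cells (−0.77, SE 1.10), lie in the same gene cluster. Gzmn and Cma2 were at most at a mean of 0.0666 CPM and were not tested.

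Granule processing, packing and release was represented by 11 tested genes, 7 above and 4 below 0, with a median of 0.03 and a range from −0.13 to 0.12. The ends were Srgn, serglycin, the proteoglycan that holds granzymes in the granule (0.12, SE 0.15), Rab27a, needed for granule docking (0.11, SE 0.18), and Stx11 (−0.13, SE 0.10) and Lyst (−0.13, SE 0.11), whose loss impairs granule release. Their standard errors were smaller than those of the granule genes themselves. Granzyme inhibitors (6 tested, 4 above 0, median 0.05) ran from Serpina3n, an extracellular inhibitor of granzyme B (−0.71, SE 0.42, 5.35 ± 1.94 CPM in sgNT and 3.26 ± 1.63 CPM in the sgCda group), to Serpinb9b (0.28, SE 0.27). Serpinb9, the intracellular inhibitor of granzyme B that also protects tumor cells, was 89.0 ± 9.63 CPM in sgNT and 88.1 ± 11.3 CPM in the sgCda group (−0.01, SE 0.10), and Serpinb6b was at 0.12 (SE 0.13).

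Among death ligands and cytotoxic cytokines (5 tested, 3 above 0, median 0.01), Tnfsf10, the death ligand TRAIL, was at −0.26 (SE 0.14), Tnf at −0.13 (SE 0.24), Lta at 0.14 (SE 0.32) and Ifng, interferon-γ, at 0.18 (SE 0.31). Of the regulators of cytotoxic genes, 17 were tested, 13 above and 4 below 0, with a median of 0.02. The T-box factor Eomes (0.27, SE 0.26) and Stat4, which acts downstream of IL-12 (0.25, SE 0.17), were highest, and Il15, a cytokine that sustains NK cells and CD8+ T cells (−0.20, SE 0.12), and Stat5a (−0.07, SE 0.09) were lowest. The list of death genes in the target cell (6 tested, 2 above 0, median −0.04) included Gsdmd (0.01, SE 0.09) and Gsdme (0.13, SE 0.09), gasdermins that form pores once cut. Over all 15299 genes the median log2 fold change was 0.0078, and 52.9% lay above 0.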

How the data were processed

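Bulk RNA-seq of 10 tumors, 5 sgNT and 5 sgCda, was grouped by sample title. The authors mapped 50-base reads from poly(A), stranded libraries to GRCm38/mm10 with TopHat and Bowtie and assigned them to Ensembl genes with HTSeq. The deposited values are raw counts, with no normalization, and 5 HTSeq summary lines were dropped. Non-unique alignments are not counted, which lowers Gzmd, Gzme and Gzmf. Symbols, positions and lengths came from GENCODE M21, promoters from RefSeq. The members and gene lists were chosen with earlier results of these data known. Named beside the 10 members were Cda, the 3 nearest genes by r of each member, and up to 4 genes a list at the ends of the fold changes, of which some are not reported here.

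Genes passing filterByExpr (15299) were tested with edgeR 4.0.16 (TMM, quasi-likelihood, two-sided, Benjamini-Hochberg) in R 4.3.3. Log2 CPM used a prior count of 2. DESeq2 1.42.0 and limma 3.58.1 (voom) were alternatives. Relations to Cd8a and Ncr1 were tested two-sided by 100000 permutations, whose smallest p is 1e-05. The differential test, the permutation test and the sequence comparison were each tried on simulated data. Whether tumors of a group came from separate mice is not labelled, so p values measure the spread between these samples. No batch is labelled. Depth limits values near 3 counts (at most 0.107 CPM).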

Additional observations from a re-analysis of the deposited data

Results flagged for a closer look

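Of 28 groups of 5 tumors examined (the 10 genes, Gzmg, Cd8a, Ncr1 and Cda in 2 groups, by log2 CPM), 1 held a tumor whose gap to the nearest other was large for the range of its group, where chance gives about 1 in 20. Gzma was 4.89 log2 CPM (29.6 CPM) in sgCda 3, against 3.26 to 3.53 log2 CPM in the other sgCda tumors, a gap of 0.832 of the range. The same tumor had the most Gzmb, Prf1, Gzmk, Nkg7, Cd8a and skeletal muscle transcripts of all 10. The cause was not tested.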

How the results depend on the processing

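All 17 alternatives to the comparison of sgCda with sgNT tumors gave 0 genes past the adjusted threshold, and the smallest unadjusted p of a granule gene in any of them was 0.0673 (Gzmb). The count of all genes at an unadjusted p under 0.05, 382 with all tumors and edgeR, was 830 without the filter on low counts and lay between 280 and 747 with any 1 tumor left out, with 747 without sgCda 3. Each of the 10 granule genes changed sign in at least 2 alternatives, and beyond the tumors left out the cause was not tested.

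With limma-voom the log2 fold changes of opposite sign were Gzmb −0.043, Gzmc 0.26, Gzmd 0.91, Gzme 0.57, Gzmf 0.30, Gzmm −0.040 and Nkg7 −0.080. With the replicate number as a replicate block they were Gzmb −0.039, Gzmc 0.23, Gzmd 0.80, Gzme 0.65, Gzmf 0.54, Gzmm −0.025 and Nkg7 −0.094, and 0 genes passed after adjustment. Same-numbered tumors did not deviate together consistently (correlations −0.03, −0.02, 0.33, −0.43 and 0.34). Of 5 numbers, 2 correlated best with their own, and the numbers were not taken as pairs. With Cd8a as a covariate Gzmm was −0.0087 and Nkg7 −0.027. Without both sgCda 3 and 4, Gzma was −0.028, Gzmb −0.56, Gzmk −0.28 and Nkg7 −0.20. Leaving out each tumor in turn gave −0.057 to 0.68 for Gzma, −0.69 to 0.59 for Gzmb, −0.74 to 0.21 for Gzmc, −1.08 to 0.31 for Gzmd, −1.03 to 0.46 for Gzme, −1.18 to 0.20 for Gzmf, −0.47 to 0.72 for Gzmk, −0.15 to 0.22 for Gzmm, −0.55 to 0.23 for Prf1 and −0.36 to 0.27 for Nkg7.

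The r with Cd8a ran from −0.17 to 0.091 for Gzmc, from −0.073 to 0.32 for Gzmd, from −0.099 to 0.35 for Gzme and from −0.038 to 0.35 for Gzmf with any 1 tumor left out, and was −0.13 for Gzmc without the 2 tumors farthest from the median of Cd8a. The r of Gzmm with Ncr1 ran from −0.19 to 0.11. Without the 2 tumors farthest from the median of Ncr1 the r with it was −0.13 for Gzma and −0.20 for both Gzmb and Prf1. The adjusted p of Nkg7 with Cd8a ran from 0.0109 to 0.204 over 14 alternatives. Low counts limit Gzmm in every tumor and Gzmd and Gzme in sgNT 1 and 2.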
